A study of Mus musculus with 8 samples.

Results

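Kupffer cells are macrophages that live in the liver sinusoids, and they carry inhibitory receptors that set how readily they engulf and respond to other cells. Of the 56691 genes in the deposited table, 10 are described here, taken by gene symbol: the receptor gene Sirpa with the gene of its ligand, Cd47, the sialic acid-binding receptors Siglec1, Siglece and Cd33, the immunoglobulin-like receptors Pirb, Lilrb4a and Pilra, and Cd300a and Cd200r1. All 10 were found and all 10 had enough counts to be tested. RNA came from mice injected with B16F10 melanoma cells, a mouse tumour line, whose livers held metastases at day 7, and live CD45+ Tim-4+ cells were sorted from them. There were 4 wild-type (WT) libraries and 4 from Vsig4-/- mice (KO), which lack the complement receptor and checkpoint protein VSIG4; tumour cells and metastases were common to both genotypes. Strain, age and the route of injection are not given in the labels. They also do not state that each library was made from its own mouse, so the p-values reflect only how far the libraries vary, and that variation may be technical. This is bulk RNA, in which fewer cells of a type and less RNA per cell cannot be told apart.

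SIRPA on a macrophage binds CD47 on another cell and passes on an inhibitory signal, often described as a "do not eat me" signal. Like most of the receptors here it carries short tyrosine motifs in its cytoplasmic tail, called ITIMs, which are phosphorylated by Src family kinases such as Lyn and then recruit the phosphatases encoded by Ptpn6, Ptpn11 and Inpp5d. Several of these receptors have activating relatives with a similar ligand-binding part, such as the Pira, Pilrb and Sirpb1 genes, which signal through the adaptors encoded by Tyrobp and Fcer1g. Siglec1 and Cd200r1 work differently: the former is an adhesion receptor without an ITIM and an interferon-inducible gene, and the latter signals through Dok proteins and Rasa1.

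The libraries had 15264043 to 19513844 counts. Vsig4 had 22498 to 46735 counts in WT libraries and 2 to 9 counts in KO libraries, in the direction of their labels. The 11 Kupffer identity genes used as reference, among them Clec4f, Timd4 and Cd5l, were all present, with a summed level of 18924 to 33027 CPM (counts as a share of library size, scaled between libraries) for WT and 7426 to 22725 CPM for KO. The libraries also held melanoma RNA: the sum over 10 melanoma genes was at least 412 CPM (WT 2) and at most 12364 CPM (KO 3), all 10 being detected in every library. WT 1 and WT 2 had under 500 CPM of it, the remaining libraries at least 2426 CPM. KO 3 thus had the most melanoma RNA and the lowest Kupffer sum. Of other cells that express some of these receptors, monocytes had 6 marker genes with a sum of 332 to 517 CPM for WT and 266 to 431 CPM for KO. The 7 neutrophil genes gave 46.3 to 96.9 CPM for WT and 45.0 to 102 CPM for KO. Among them S100a9 had 21.4 to 47.9 CPM and S100a8 had 12.5 to 36.6 CPM over the 8 libraries. Ly6g was at 0 in every WT library and at most 0.223 CPM in KO, and was the only 1 of the 7 at 0 in any library.

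The deposited table places Sirpa (ENSMUSG00000037902) on chromosome 2, plus strand, at 129434755 to 129474148, and Siglec1 (ENSMUSG00000027322) on chromosome 2, minus strand, at 130911140 to 130928685. Cd47 (ENSMUSG00000055447, 49620896 to 49735373) and Cd200r1 (ENSMUSG00000022667, 44586099 to 44615341) lie on the plus strand of chromosome 16. Pirb (ENSMUSG00000058818, 3714408 to 3723390), Cd33 (ENSMUSG00000004609, 43173640 to 43193852) and Siglece (ENSMUSG00000030474, 43300494 to 43309585) lie on the minus strand of chromosome 7, the last 2 as near neighbours. Lilrb4a (ENSMUSG00000112148) is on chromosome 10, plus strand, at 51367052 to 51372707, Cd300a (ENSMUSG00000034652) on chromosome 11, plus strand, at 114780867 to 114795480, and Pilra (ENSMUSG00000046245) on chromosome 5, minus strand, at 137820214 to 137834543. The table names no build for these positions, and none of the 10 equals the gene's position in GRCm38.

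Most of the receptor genes were strongly expressed, and 3 levels stood apart. Levels between genes are compared in FPKM (counts divided by exonic length and library total), the authors' values, which allow for gene length. Siglece, an inhibitory sialic acid receptor, led with 235.9, 261, 144 and 192 FPKM in WT 1 to 4 and 219.8, 226, 72.3 and 179 FPKM in KO 1 to 4. Lilrb4a, also called gp49B, had 196, 221, 163 and 195 FPKM in WT and 203, 182, 92.5 and 139 FPKM in KO. Sirpa had 219.6, 208, 131 and 161 FPKM in WT and 177, 171, 107 and 167 FPKM in KO. These 3 overlapped in their WT ranges and could not be ordered. All 3 had a higher mean level than 98.6% to 98.7% of the 15870 tested genes.

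A middle group ranged from Siglec1 down to Cd47. Siglec1, the adhesion receptor also known as CD169, had 108, 116, 76.3 and 105 FPKM in WT 1 to 4 and 100.2, 84.1, 31.8 and 68.9 FPKM in KO 1 to 4. Sirpa was above it in all 8 libraries. Pirb, a receptor for MHC class I, had 88.6, 95.9, 75.4 and 85.6 FPKM in WT and 117, 110.3, 40.0 and 79.2 FPKM in KO. Pilra, which binds sialylated proteins, had 108, 96.3, 60.3 and 72.4 FPKM in WT and 85.0, 79.4, 32.2 and 64.3 FPKM in KO. Siglec1, Pirb, Pilra and Cd300a changed places from library to library. Cd300a, a receptor for lipids exposed on dying cells, had 92.8, 93.7, 66.5 and 75.5 FPKM in WT and 72.8, 78.9, 37.2 and 77.8 FPKM in KO. Cd47 followed with 73.7, 75.1, 51.1 and 56.5 FPKM in WT and 60.5, 60.2, 25.6 and 45.5 FPKM in KO, and was below Cd300a in 8 of 8 libraries although their WT ranges overlapped.

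Cd33 and Cd200r1 were the least expressed. Cd33, which gives its branch of the sialic acid receptors its name, had 17.9, 15.3, 10.97 and 13.2 FPKM in WT 1 to 4 and 16.1, 16.7, 6.85 and 11.9 FPKM in KO 1 to 4. Cd200r1, the receptor for the surface protein CD200, had 13.2, 11.3, 7.64 and 7.09 FPKM in WT and 10.8, 8.54, 5.61 and 7.82 FPKM in KO. Cd47 was above Cd33 in all 8 libraries, with WT ranges that did not overlap, and Cd33 was above Cd200r1 in all 8 with ranges that did. Depth was ample for each gene, the smallest count being 319, for Cd200r1 in KO 3, and the largest 22504, for Lilrb4a in WT 2. In KO the order was nearly the same, with Sirpa above Lilrb4a, Pirb above Siglec1 and Cd300a above Pilra on the mean.

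**Figure D1:**
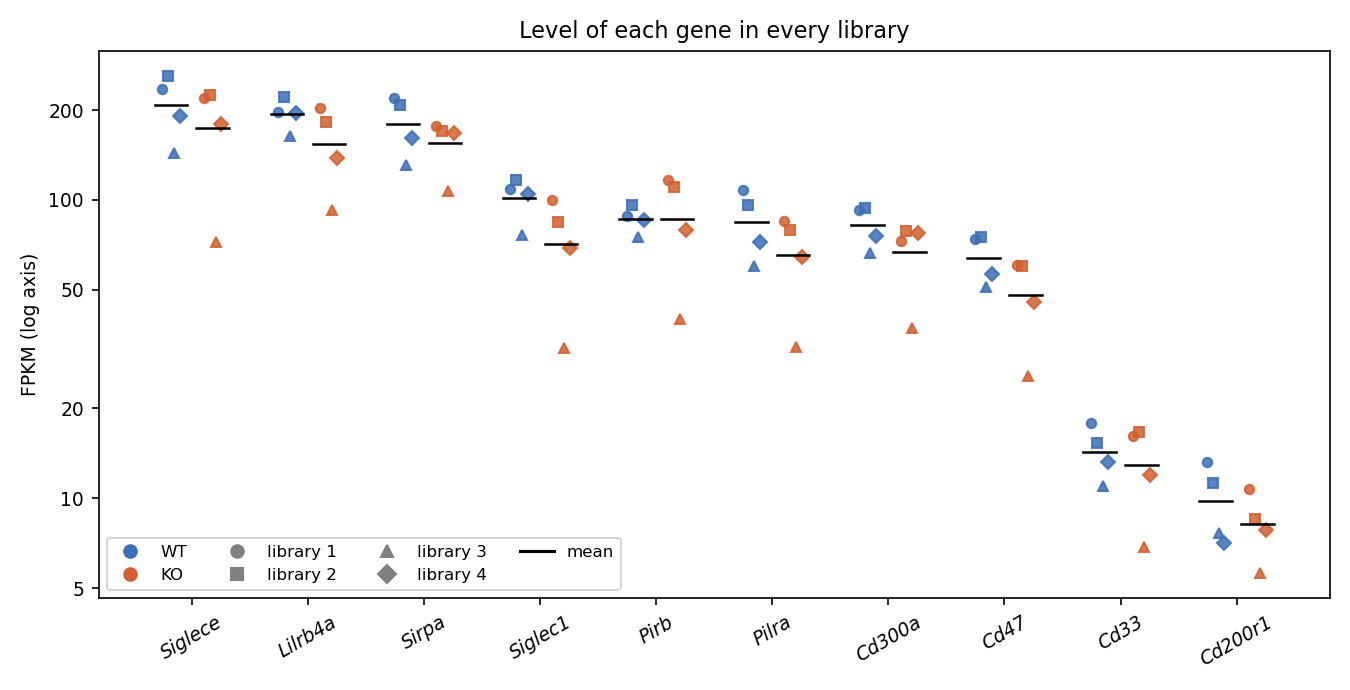
FPKM on a log axis for each of the 10 genes, ordered by mean WT level, in the 4 WT (blue) and 4 KO (orange) libraries; symbols mark the library number and bars the mean. The groups overlap for every gene, and KO 3 is the lowest library in all 10.

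The genes varied together from library to library. KO 3 had the lowest CPM for 10 of 10 genes, and among the WT libraries WT 3 was lowest for 9 and WT 4 for 1, Cd200r1. The highest CPM was 2.36 times the lowest for Sirpa and 4.24 times for Siglec1, with the others between. Over the 8 libraries the 45 pairs of genes had Pearson correlations of log2 CPM from 0.776 (Cd200r1 with Pirb) to 0.987 (Pilra with Cd47), with a median of 0.940. The libraries share the melanoma gradient given above, so these values describe the libraries and are given without a test. By the same measure the genes most like Siglece were Naip2 (r = 0.999), Cd38 (r = 0.998) and the kinase gene Lyn (r = 0.997), those most like Lilrb4a were Psme2b (r = 0.999), a copy of Psme2 whose reads may be shared, Macf1 (r = 0.998) and Oas1a (r = 0.998), and those most like Sirpa were Plek (r = 0.993), Tgm2 (r = 0.992) and Lipa (r = 0.991).

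The start regions on file were read for sequence motifs as a description. Whether the motifs bear on the shared variation between libraries was not tested. The RefSeq table of start regions, 250 bases before and 50 after a gene's start in GRCm38.p6, held 6 of the 10: Pirb, Siglece, Pilra, Cd33, Cd300a and Cd47; Sirpa, Siglec1, Lilrb4a and Cd200r1 were not matched. The sequences of Siglece and Pirb are shown as the receptor genes with most matches to the core GAGGAA of PU.1, the master factor of macrophages, Pilra as the gene that also had an interferon response element (GAAA, any 2 bases, GAAA), and Cd47 as the gene with neither. They run 5′ to 3′ on the gene's strand, and capitals mark those 2 motifs on either strand.
Siglece (chr7:43660112-43660411, minus strand): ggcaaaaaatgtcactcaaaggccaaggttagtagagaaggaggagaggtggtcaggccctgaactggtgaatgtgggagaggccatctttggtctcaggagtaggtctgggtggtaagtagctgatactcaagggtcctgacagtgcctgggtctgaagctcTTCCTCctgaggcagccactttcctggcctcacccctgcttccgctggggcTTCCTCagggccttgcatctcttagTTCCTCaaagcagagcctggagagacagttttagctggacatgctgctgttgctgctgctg
Pirb (chr7:3720333-3720632, minus strand): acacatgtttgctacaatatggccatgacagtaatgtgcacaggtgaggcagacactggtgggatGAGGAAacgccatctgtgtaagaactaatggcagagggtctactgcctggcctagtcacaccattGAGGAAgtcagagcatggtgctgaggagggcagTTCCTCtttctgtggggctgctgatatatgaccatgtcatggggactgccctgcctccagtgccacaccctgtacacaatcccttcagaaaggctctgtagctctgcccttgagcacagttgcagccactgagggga
Pilra (chr5:137836229-137836528, minus strand): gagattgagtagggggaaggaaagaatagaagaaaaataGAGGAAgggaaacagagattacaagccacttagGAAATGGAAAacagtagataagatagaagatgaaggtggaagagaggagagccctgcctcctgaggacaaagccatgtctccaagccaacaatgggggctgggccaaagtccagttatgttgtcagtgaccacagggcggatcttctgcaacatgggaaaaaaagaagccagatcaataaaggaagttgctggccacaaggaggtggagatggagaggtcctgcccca
Cd47 (chr16:49855404-49855703, plus strand): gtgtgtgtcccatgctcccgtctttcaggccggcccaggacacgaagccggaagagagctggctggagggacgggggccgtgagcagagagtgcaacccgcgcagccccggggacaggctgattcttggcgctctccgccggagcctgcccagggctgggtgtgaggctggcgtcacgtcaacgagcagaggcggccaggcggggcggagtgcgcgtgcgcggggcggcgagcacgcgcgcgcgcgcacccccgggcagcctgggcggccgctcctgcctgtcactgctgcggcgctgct

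The 5 receptor genes with an entry all held GAGGAA, against 28.3% of the 32851 start regions in the table. Siglece had it at -87, -36 and -11 and Pirb at -185, -120 and -87, counted from the start to the left end of the match. Pilra had it at -211, Cd33 at -226 and Cd300a at -39. Pilra alone held the interferon response element, at -178, which 3.44% of all start regions held. Cd47, which nearly all cell types express, held neither motif at either of its 2 listed starts. Its start region was 74% G or C with 35 CG dinucleotides, where the median of the table was 52.7% and 7, and held 3 GC boxes (GGGCGG), while the receptor genes had 47.7% to 55% and 1 to 4 CG dinucleotides. A match is a string of letters and not a measured binding site.

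Without regard to the library numbers, no gene of the 10 passed the test between KO and WT; with the numbers as a block, Cd47, Siglec1 and Pilra did, as given further on. In edgeR's quasi-likelihood test 0 of 10 passed the adjusted threshold of 0.05, where 0.00630% of all tested genes did, and 0 of 10 had an unadjusted p under 0.05, where 8.78% did; DESeq2 (0.442% of its tested genes called) and limma on log2(FPKM + 1) also called 0. The groups overlapped in CPM for 10 of 10, while they did not for 5.56% of tested genes (KO lower for 2.85%, KO higher for 2.71%). All 10 log2 fold changes (KO minus WT) were nonetheless below 0, as were 50.4% over all tested genes. The same held for all 11 Kupffer identity genes and for all 8 general macrophage genes, such as Csf1r and Cd68. The median of the 10 was -0.38 beside -0.0028 for all tested genes. Since the genes moved together across libraries, the 10 directions are not 10 separate observations.

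Siglec1 had the lowest fold change, with 754 ± 164 CPM across WT and 499.9 ± 219 CPM across KO libraries (SD, n = 4 libraries each), a log2 fold change of -0.59 ± 0.351 (SE; 95% interval -1.39 to 0.21; edgeR adjusted p = 0.492). Cd47 had 419.7 ± 104 CPM across WT and 295 ± 109.8 CPM across KO libraries (-0.51 ± 0.308; interval -1.21 to 0.19; edgeR adjusted p = 0.492). Its receptor gene Sirpa had 923 ± 262 CPM across WT and 745 ± 173 CPM across KO libraries (-0.31 ± 0.262; interval -0.91 to 0.29; edgeR adjusted p = 0.549). Pirb was nearly level, with 401 ± 61.0 CPM across WT and 380.4 ± 165 CPM across KO libraries (-0.076 ± 0.327; interval -0.82 to 0.67; edgeR adjusted p = 0.909). The other 6 had log2 fold changes of -0.46 (Pilra), -0.42 (Lilrb4a), -0.39 (Cd300a), -0.36 (Cd200r1), -0.35 (Siglece) and -0.24 (Cd33), with adjusted p from 0.499 to 0.678 in edgeR. Every interval included 0 and reached down to -0.82 or lower, so this fit does not exclude a change of that size.

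Deviations from the genotype means correlated at 0.290 to 0.660 between same-numbered libraries. No label states a pairing, however, and only for number 3 was the best match mutual. With the library number as a block 3 of the 10 fell in KO, where 5.01% of tested genes fell, 8.98% rose and 14.0% changed. These were Cd47 (blocked log2 fold change -0.57 ± 0.137, edgeR adjusted p = 0.0371), Siglec1 (-0.70 ± 0.175, edgeR adjusted p = 0.0406) and Pilra (-0.51 ± 0.130, edgeR adjusted p = 0.0420). Within the numbers 1 to 4, Cd47 differed by -0.38, -0.45, -1.05 and -0.38 on the log2 scale and Siglec1 by -0.21, -0.60, -1.32 and -0.67. KO 3 with WT 3 gave the lowest value for both. KO was the lower in 4 of 4 pairs for 8 of the genes, against 19.6% of all tested genes, and the exceptions were Cd200r1 with 3 and Pirb with 2. Leaving out pair 1, 2 or 3 ended all 3 calls, as it ended most calls over all genes, which went from 2220 to 207, 2 and 1 (adjusted p in edgeR of 0.0808, 0.108 and 0.0827 for Cd47, 0.0647, 0.113 and 0.0827 for Siglec1 and 0.0969, 0.121 and 0.0848 for Pilra). The blocked log2 fold changes without pair 1, 2 or 3 were -0.64, -0.61 and -0.41 for Cd47, -0.87, -0.73 and -0.50 for Siglec1 and -0.55, -0.55 and -0.37 for Pilra, the value nearest 0 being that without pair 3. Without pair 4, Cd47 and Pilra were called, Siglec1 was not (adjusted p = 0.0673), and Cd300a and Cd200r1 were called in addition (adjusted p = 0.0419 and 0.0369).

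Melanoma content moved with these values. Its mean log2 CPM as a covariate in the fit left a median log2 fold change of 0.071 over the 10 genes, with 0 called and values from -0.22 for Siglec1 to 0.24 for Pirb (edgeR adjusted p from 0.897 to 0.991). The sign turned to above 0 for 6 of 10, namely Sirpa (0.11), Siglece (0.14), Cd33 (0.17), Pirb (0.24), Pilra (0.037) and Cd200r1 (0.16). Lilrb4a (-0.11), Cd300a (-0.040) and Cd47 (-0.091) had values below 0, as did Siglec1, which makes 4 of 10 where 47.2% of all tested genes were below 0. With the block and the covariate in 1 fit, by contrast, all 10 were below 0, from -0.99 ± 0.352 for Siglec1 over -0.75 for Lilrb4a, -0.69 for Cd47 and -0.63 for Pirb to -0.022 ± 0.244 for Cd200r1, and 0 were called (edgeR adjusted p from 0.707 to 0.987). The direction after allowing for melanoma RNA therefore depended on the block for those 6 genes. The fit with both has many terms for 8 libraries and leaves few degrees of freedom. Without KO 3, the library with most melanoma RNA, the median was -0.20 and Pirb was at 0.17, Siglece at -0.088 and Cd33 at -0.024.

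**Figure D2:**
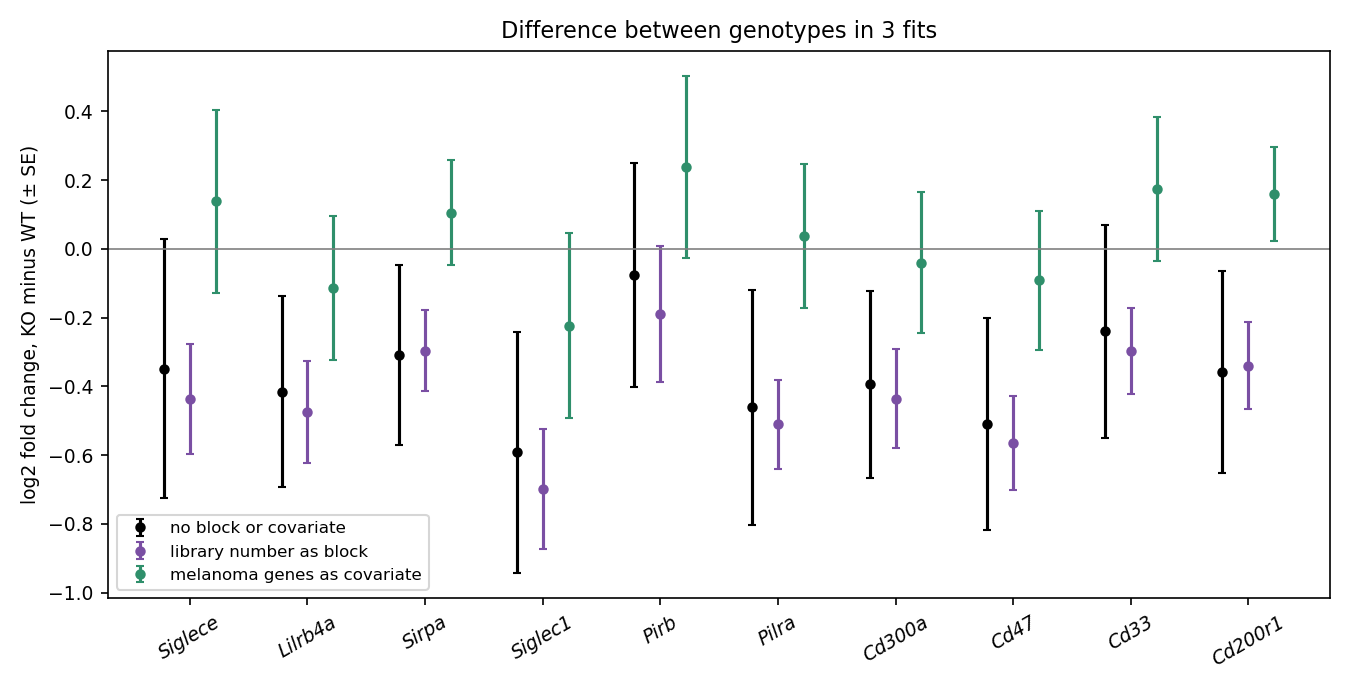
Log2 fold change (KO minus WT) with its SE for each gene in 3 edgeR fits: without block or covariate (black), with the library number as a block (purple) and with melanoma genes as a covariate (green). All 10 black and purple points lie below 0, and 6 of the 10 green points lie above it.

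Set against Kupffer genes of the same library, 9 of the 10 differences were above 0, as were 92.5% over all tested genes. Those of Cd47, Siglec1 and Pilra lay nearest 0. The level of each gene was taken as its log2 CPM minus the mean log2 CPM of the 11 Kupffer identity genes, whose own mean was 10.14 ± 0.355 in WT and 9.51 ± 0.687 in KO. On this scale the median difference (KO minus WT) of the 10 genes was 0.19, while that of all tested genes was 0.62. For Cd47 the relative level spanned 0.31 over the 8 libraries, where its log2 CPM spanned 1.77. It was at -1.48, -1.42, -1.47 and -1.47 in WT 1 to 4 and at -1.38, -1.38, -1.26 and -1.57 in KO 1 to 4, with overlapping groups. Pilra spanned 0.34 where its log2 CPM spanned 1.95, and Siglec1 spanned 0.40 where it had spanned 2.08. Siglec1 was the single gene with a relative difference below 0, at -0.071. Cd300a and Siglece spanned 0.43 and 0.50, so a small span was not particular to these 3 genes. With the 8 general macrophage genes as the reference Pilra spanned 0.14 and Cd47 0.21. Siglece then spanned 0.32, Cd300a 0.45 and Siglec1 0.49. The spans were not set against those of all tested genes.

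Sirpa, Cd33 and Pirb had higher levels relative to Kupffer genes in KO, with groups that did not overlap. That is 3 of 10, where 8.30% of all tested genes were higher and 0.151% lower without overlap. The differences of these 3 were smaller than the median of 0.62 over all tested genes. Their log2 fold changes without block or covariate were below 0. Pirb was at -1.71, -1.56, -1.40 and -1.36 in WT 1 to 4 and at -0.92, -0.99, -1.11 and -1.26 in KO 1 to 4, a difference of 0.43. Cd33 was at -3.22, -3.41, -3.38 and -3.26 in WT and at -2.98, -2.91, -2.86 and -3.20 in KO, a difference of 0.33, and KO 4 lay close to WT 1. Sirpa was at -0.26, -0.30, -0.46 and -0.31 in WT and at -0.19, -0.22, 0.45 and -0.051 in KO, a difference of 0.33 in which KO 3 stood well above the rest. With 8 general macrophage genes such as Csf1r and Cd68 as the reference, Pirb and Cd33 again did not overlap, where 2.62% of tested genes were higher without overlap, and Sirpa did. With that reference 8 of 10 differences were above 0, as were 90.2% over all tested genes. With the Kupffer reference 9 of 10 were above 0, as were 92.5% over all tested genes. The part of other cells in the values of Pirb, Cd33 and Sirpa was not tested.

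**Figure D3:**
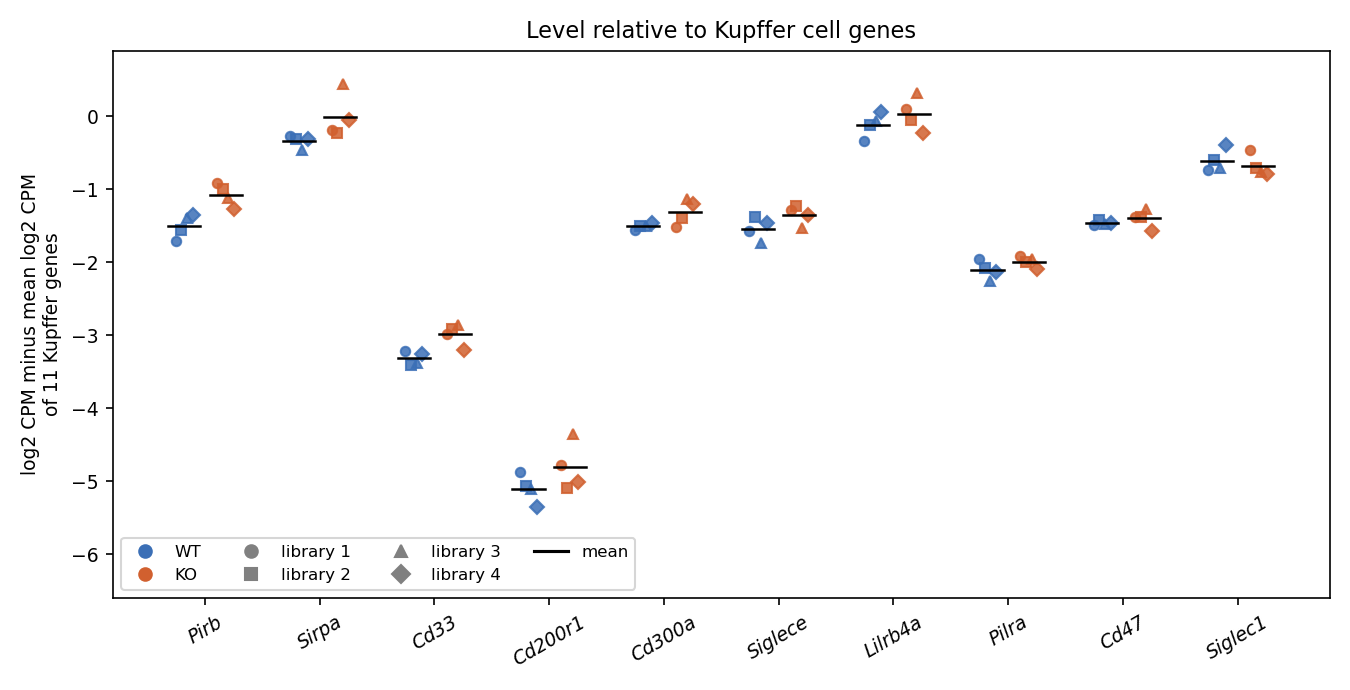
Log2 CPM of each gene minus the mean log2 CPM of 11 Kupffer identity genes in every WT (blue) and KO (orange) library, ordered by the difference between genotypes; symbols mark the library number and bars the mean. Groups separate for Pirb, Sirpa and Cd33, and the points of Cd47 and Pilra lie within 0.31 and 0.34 of each other.

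Ratios of related genes within a library are free of the scaling between libraries. They are given as a description, since the pairs were chosen with the values known. The groups overlapped for every ratio formed, also for those not shown. Counts over same-numbered libraries were not set against the same count for other gene pairs. Cd47 per Sirpa, in FPKM, was 0.336, 0.361, 0.390 and 0.351 in WT 1 to 4, against 0.342, 0.352, 0.239 and 0.272 in KO 1 to 4. KO 1 and KO 2 were within the WT range and KO 3 and KO 4 below it. The melanoma sum was 12364 CPM in KO 3 and 6440 CPM in KO 4, against 5489 CPM in WT 3 and 4692 CPM in WT 4. The part of melanoma RNA in this ratio was not tested. Siglec1 per Siglece was 0.460, 0.445, 0.529 and 0.545 in WT and 0.456, 0.373, 0.440 and 0.384 in KO, where 3 KO libraries lay below every WT library and KO was the lower in 4 of 4 same-numbered pairs.

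The inhibitory receptors were also set against their activating or closely related copies. Lilrb4a per Lilrb4b, its neighbour and near-identical copy, was 1.34, 1.47, 1.31 and 1.38 in WT 1 to 4, against 1.92, 1.77, 1.14 and 1.39 in KO 1 to 4, so that the KO libraries lay on both sides of the WT range. Reads could be shared between these copies, and the ratio is uncertain for that reason. Pirb per Pira2, an activating relative whose reads may also be shared, was 5.26, 6.54, 8.08 and 8.26 in WT and 7.72, 8.64, 10.95 and 9.70 in KO. KO was the higher of each same-numbered pair in 4 of 4, but the groups overlapped. In each genotype this ratio was higher in libraries 3 and 4, which held more melanoma RNA, than in libraries 1 and 2. The part of melanoma RNA in it was not tested. Pilra per Pilrb1, its activating partner, was 0.920 ± 0.0931 in WT and 0.840 ± 0.0263 in KO (SD, n = 4 each) with KO inside the WT range except for KO 1. Cd200r1 per Cd200r4 was 1.62, 1.40, 1.88 and 1.155 in WT and 2.15, 1.73, 2.56 and 1.89 in KO, again overlapping, with KO the higher in 4 of 4 same-numbered pairs.

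**Figure D4:**
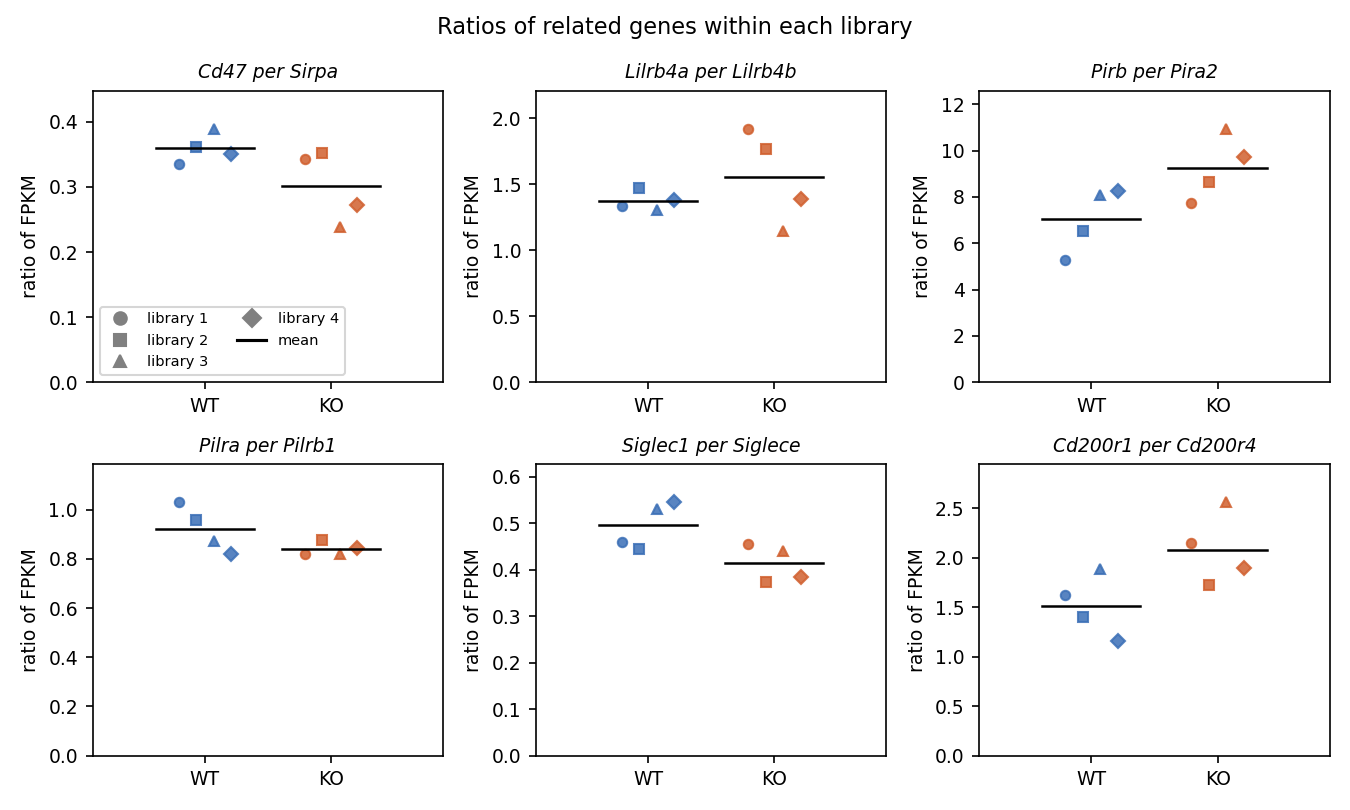
Ratios of FPKM of 6 pairs of related genes in every WT (blue) and KO (orange) library, from 0 on the vertical axis; symbols mark the library number and bars the mean. KO 3 and KO 4 have the lowest Cd47 per Sirpa, and KO 1 and KO 2 the highest Lilrb4a per Lilrb4b.

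The wider pathway was read from 6 lists with 89 genes, of which 84 were tested. Without the block 0 of 84 passed in edgeR, 7 had an unadjusted p under 0.05 (8.78% over all tested genes) and DESeq2 called 1, Lilrb4b. With the block 18 fell and 4 rose, where 5.01% of all tested genes fell and 8.98% rose. These 22 calls became 1, 0 and 0 without pair 1, 2 or 3, and 0 with the block and the melanoma covariate together. Among the 14 genes listed as other inhibitory receptors 11 had values below 0, the median log2 fold change was -0.41, and 5 fell with the block. Lilrb4b was on that list, although its product lacks the ITIMs of the Lilrb4a product. Lilrb4b had 147, 150.5, 125 and 141 FPKM in WT 1 to 4 and 106, 103, 80.8 and 100.1 FPKM in KO 1 to 4, and its groups did not overlap (log2 fold change -0.62 ± 0.166, edgeR adjusted p = 0.492; blocked -0.63 ± 0.1003, edgeR adjusted p = 0.0254; DESeq2 adjusted p = 0.0408). Clec12a, a C-type lectin receptor for uric acid crystals, had 78.6 ± 14.0 FPKM in WT and 58.7 ± 20.6 FPKM in KO. The others that fell with the block were Lair1, Cd72 and Milr1.

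Of 10 inhibitory signal genes 8 had values below 0, with a median of -0.15, and Rasa1 alone fell with the block (-0.36, edgeR adjusted p = 0.0360). The phosphatase gene Ptpn6 had 153 ± 26.3 FPKM in WT and 141 ± 43.1 FPKM in KO, and the kinase gene Csk 55.9 ± 6.50 FPKM in WT and 61.5 ± 4.11 FPKM in KO. None of the 6 Src family and Syk kinase genes was called with or without the block in edgeR (0 had an unadjusted p under 0.05 without it); their median was -0.27, with Lyn at 132 ± 29.6 FPKM in WT and 118 ± 44.5 FPKM in KO. Of 19 tested activating partners and adaptors 16 had values below 0, with a median of -0.40, and 6 fell with the block, among them the adaptor gene Tyrobp (726 ± 148 FPKM in WT and 546 ± 215 FPKM in KO) but not the adaptor gene Fcer1g (472 ± 75.4 FPKM in WT and 391 ± 143 FPKM in KO).

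Ligand genes had both directions. Of 17 tested 11 had values below 0, the median was -0.45, and with the block 5 fell and 3 rose. The MHC class I genes B2m, H2-K1 and H2-D1, whose proteins PIRB binds, fell with the block, as did Apoe and Clec4g, while Angptl2, Npdc1 and Pianp rose. Counts of Angptl2 were 61, 53, 519 and 335 for WT 1 to 4 and 165, 293, 1165 and 780 for KO 1 to 4, lowest in the 2 libraries with least melanoma RNA and highest in KO 3. With the melanoma covariate and no block the log2 fold changes of Angptl2, Npdc1 and Pianp, 1.09, 1.04 and 0.79 without it, were -0.21, -0.0044 and 0.00066. Those of B2m, H2-K1, H2-D1 and Apoe were -0.15, -0.27, -0.22 and -0.25 with the covariate and -0.58, -0.67, -0.63 and -0.63 without it. That of Clec4g was 0.21 with the covariate and -1.04 without it. Clec4g is also 1 of the endothelial markers, whose sum was 718 to 1522 CPM for WT and 299.6 to 1026 CPM for KO. B2m had 2593 ± 555 FPKM in WT and 1843 ± 687 FPKM in KO, and Apoe had 4240.4 ± 858 FPKM in WT and 2914 ± 886 FPKM in KO. Cd200, the ligand gene of Cd200r1, was low, at 31 to 113 counts in a library. Of 18 genes for the synthesis and transfer of sialic acid, the sugar that Siglec receptors bind, 10 had values below 0, the median was -0.088, and with the block Nans rose and Cmah fell. The most expressed were the sialyltransferase genes St3gal5 (183 ± 33.6 FPKM in WT and 148 ± 45.9 FPKM in KO) and St3gal4 (68.6 ± 5.99 FPKM in WT and 57.8 ± 11.1 FPKM in KO). Melanoma content differed between the same libraries in these lists too, and with it as a covariate the list medians ran from -0.15 for the ligands to 0.11 for the inhibitory signal genes.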

How the data were processed

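Bulk RNA-seq of 8 libraries was used. Per the file headers, the deposited table holds raw counts per gene and the authors' FPKM; these FPKM equal the count over exonic size and column total within 0.015 for 100% of genes. Exonic sizes and gene positions are deposited as other numbers. The submitters' processing notes name HTSeq 0.6.1 and the build mm10. The deposited positions, however, matched GRCm38 for 0 of the 10 genes and for 1435 of the 52073 genes compared over the table. No aligner, strand setting or annotation is named there. Columns C1 to C4 were taken as the WT libraries with those numbers in their titles, and K1 to K4 as KO.

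Counts were filtered by filterByExpr (15870 genes kept), scaled by TMM and compared in edgeR 4.0.16 (R 4.3.3) with the quasi-likelihood F test, 2-sided, Benjamini-Hochberg adjusted over all genes at 0.05. Alternatives used DESeq2 1.42.0, limma 3.58.1 on log2(FPKM + 1) or log2(FPKM + 0.1), other scaling, no filter, each library left out, the library number as block and melanoma genes as covariate. Log2 CPM has a prior count of 2. Scripts were tested on simulated data. Depth was 15264043 to 19513844 counts.

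Deviations from the genotype means correlated at 0.561, 0.544, 0.660 and 0.290 for the numbers 1 to 4, each over 0.1. Same-numbered libraries were treated as pairs on that ground, and no label states a pairing. Melanoma RNA was higher in numbers 3 and 4 than in 1 and 2 in both genotypes, so these correlations cannot by themselves show a pairing. The best partner of WT 2 was KO 1, of WT 4 KO 3, of KO 1 WT 2 and of KO 4 WT 3, so that of the same-numbered pairs only number 3 was mutual. Every 2 libraries of 1 genotype differed by more than sampling noise (chi-square per degree of freedom at least 11.2).

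The genes and lists were chosen with earlier results of these data known. All 10 genes are named; from each wider list genes past the threshold, otherwise the 2 most expressed; and the 3 genes most correlated with each of the 3 most expressed. Other list genes are named for their blocked call, after values were seen. The result of 1 gene that this rule names is not reported here.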

Additional observations from a re-analysis of the deposited data

Results flagged for a closer look

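For Cd300a the lowest KO library, KO 3 at 166 CPM, lay far from the other KO libraries, which were at 345.6 to 372 CPM. Of 60 groups of 4 libraries checked for a distant value (the 10 genes in CPM, the 10 relative to Kupffer genes and the 10 ratios, in each genotype), this was the only group past the limit, and chance flags about 1 in 20. KO 3 was also the library with the most melanoma RNA, at 12364 CPM.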

How the results depend on the processing

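Of 210 values of the 10 genes under alternatives, 193 kept direction and call, 7 became calls, all under the block, and 10 turned direction. The turned values were those with the melanoma covariate for Sirpa (0.11), Siglece (0.14), Cd33 (0.17), Pirb (0.24), Pilra (0.037) and Cd200r1 (0.16), and for Pirb without composition scaling (0.0042), without WT 2 (0.0078), without KO 3 (0.17; -0.28 to 0.17 over each library left out) and with the block without pair 3 (0.061). The replicate block called 3 of the 10 and changed no other call among them; it called 2220 of all genes and 22 of the wider lists; with the block and without pair 4, chosen after the data were seen like the other pairs left out and the settings of the wider lists, it called 4, 2229 and 19. Without pair 1 it called 0 of the 10, 207 and 1, and without pair 2 or 3 it called 2 and 1 of all genes and 0 of the 10 and of the wider lists. With the block and the melanoma covariate together 2 of all genes, 0 of the 10 and 0 of the wider lists were called, with 10 of 10 below 0, unlike with the covariate alone; without a filter on low counts 2 of all genes were called. DESeq2 called 66 of all genes and 1 of the wider lists. Leaving out each library gave 1 to 2 calls over all genes and 0 of the 10. The median relative to Kupffer genes was 0.12 with general macrophage genes and 0.14 to 0.22 with each library left out. Where a cause is not given by fewer genes or samples, the cause was not tested. The smallest count of the 10 genes in any library was 319, and the spread between libraries, more than counting error, set the width of the intervals.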
